A study of Arabidopsis thaliana with 6 samples.

Results

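Glutathione transferase, cytochrome P450 and UGT genes were described in cotyledons of Arabidopsis thaliana that had been induced to form vascular cells in culture. The members are the genes whose probe set is paired in the platform annotation with a single symbol beginning GSTU, GSTF, GSTL, GSTZ, GSTT, CYP or UGT and followed by a number. The symbol rule gave 94 genes out of 16550 with a singly paired probe set. Of these, 15 are glutathione transferases, 26 are P450 genes and 51 are UGT genes. The remaining 2, CYP59 and CYP71, are cyclophilins by their RefSeq names and only share the CYP prefix. They are kept out of the family summaries, but counts over 94 members include them. Each gene is represented by its brightest probe set over the 6 arrays. No zeta or theta glutathione transferase was among the members, and 2 probe sets paired with UGT84A1 and a second gene at once were left out.

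The study compared 3 arrays of wildtype Col-0 with 3 arrays of the apl mutant, whose ecotype and allele are not named in the labels. APL encodes a MYB-family protein required for phloem cell fate, so the contrast addresses transcripts that differ when it is mutated. Cotyledons from seedlings 6 days old, of both genotypes, were kept for 72 h in a medium with the synthetic auxin 2,4-D at 1.25 mg/L, the cytokinin kinetin at 0.25 mg/L and bikinin, an inhibitor of GSK3-type kinases, at 10 µM. Every array thus comes from treated tissue, and no uninduced or untreated cotyledon is among the samples. The labels do not say whether replicates were separate cultures, so p-values measure the spread between these samples only.

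All 3 enzyme families act on small molecules. P450 enzymes are haem proteins that usually add oxygen to a substrate, UGTs attach a sugar from a UDP-sugar to an acceptor, and glutathione transferases join the tripeptide glutathione to reactive compounds or bind ligands. Together they modify hormones, phenolics, defence compounds and foreign chemicals, herbicides among them, and the conjugates are often moved into the vacuole. Tau class glutathione transferases are known in several plants as genes that respond to auxins, 2,4-D included.

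Values are log2 RMA signals, so 1 unit is a 2-fold difference in signal. RMA gives no detection call, and signals of different probe sets do not rank their transcripts. Median signals per array lay between 6.05 and 6.25 and 25th percentiles between 3.79 and 4.03. A group mean under the 25th percentile of every array is called dim below, because such a signal cannot be told from background. APL has no singly paired probe set, so its level is not analysed here. The leaf markers RCA and LHCB4.1 of photosynthesis were bright, at 9.79 to 10.63 and at 8.68 to 9.16, and differed by -0.18 (SE 0.25) and 0.15 (SE 0.19) between genotypes.

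Among the 94 genes, GSTU18 was lower in apl by the test across all probe sets, and none was higher. GSTF4 showed the greatest difference, 41.8-fold in signal, and UGT71D1 differed 2.41-fold in signal, both with apl signals that reach the background range. With all arrays and the ordinary variance prior, both passed when arrays were paired by replicate number and not otherwise. GSTF4 also passed unpaired with a variance trend and robust prior, without apl replicate 2 or without apl replicate 3. It did not pass when any other array was left out. With all arrays and no added scaling or array weights, no other member differed by as much as 2-fold. UGT73C6 did so with quantile normalization (2.04-fold) and with array weights (2.17-fold), without a call. When 1 array was left out, 9 members other than these 3 passed 2-fold, UGT73C6 among them. The largest was 2.94-fold, for UGT73C6 without apl replicate 3, and none of the 9 was called (limma). In the fit without pairing (limma, Benjamini-Hochberg adjusted p under 0.05 over 38408 probe sets), 1 of 94 members was lower and 0 of 94 were higher, and all probe sets gave 0.526% lower and 0.0781% higher. With the replicate block 3 of 94 members were lower and 0 higher, against 0.885% and 0.211% of all probe sets. At an unadjusted p under 0.05, 6 members were lower and 4 higher, or 6.38% and 4.26%, where all probe sets gave 4.34% and 4.66%. The members' shares at that level are near those of all probe sets. The groups did not overlap for 6 members with apl below and 6 with apl above, or 6.38% each, against 5.32% and 9.91% of all probe sets. Without the cyclophilins, 5 members had apl above.

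**Figure D1:**
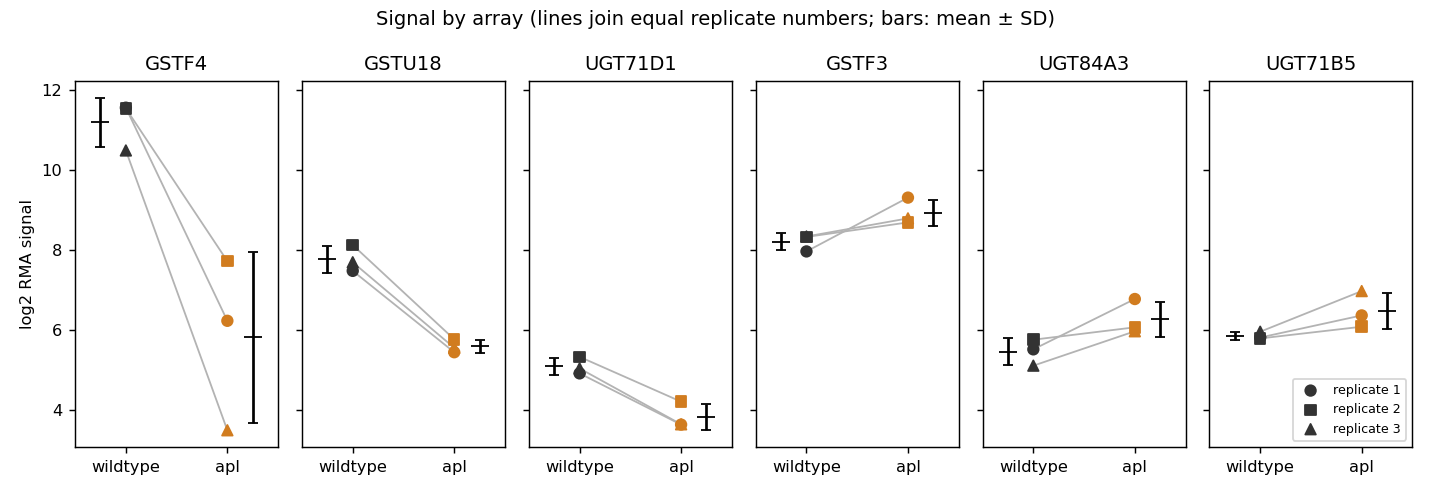
Log2 RMA signal of 6 members in each array, with wildtype in black, apl in orange, a marker shape for each replicate number, grey lines joining equal numbers, and bars for the mean ± SD of 3 arrays. GSTF4 lies between 10.50 and 11.57 in wildtype and between 3.50 and 7.73 in apl, and GSTU18 and UGT71D1 are lower in apl in all 3 pairs, while GSTF3, UGT84A3 and UGT71B5 are higher in all 3.

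Of the tau class, the plant-specific class best known for detoxifying herbicides, 11 genes were measured. GSTU18 (AT1G10360) had signals of 7.49, 8.14 and 7.70 in wildtype and 5.45, 5.78 and 5.56 in apl. All wildtype arrays stood well above all apl arrays, and both groups were narrow. Its signal fell by 2.18 log2 units with SE 0.23 (n = 3 arrays in each genotype), a 4.52-fold drop, with an adjusted p of 0.0156 (limma, Benjamini-Hochberg) and 0.0194 with the replicate block. Within the pairs of equal replicate number the difference was -2.04, -2.36 and -2.14. The call was lost without wildtype replicate 1 (adjusted p 0.0670), wildtype replicate 2 (0.0769), wildtype replicate 3 (0.0589) or apl replicate 1 (0.0936), while the fold stayed between 3.99 and 5.00. In whole cotyledons, fewer cells of a type and less RNA per cell cannot be told apart.

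GSTF4 (AT1G02950), of the phi class, had signals of 11.57, 11.55 and 10.50 in wildtype and 6.24, 7.73 and 3.50 in apl. The groups were far apart, and the apl arrays also differed widely among themselves, with an SD of 2.15 against 0.61 in wildtype. The difference was -5.38 (SE 0.98, n = 3 per group), with a 95% interval of -7.71 to -3.06. It did not pass across all probe sets, at an adjusted p of 0.0928 (limma), and passed with the replicate block, at 0.0473 (SE 0.62). Without apl replicate 2 it was 80.9-fold (adjusted p 0.0287) and without apl replicate 3 it was 18.7-fold (0.0471). It was not called without wildtype replicate 1 (limma adjusted p 0.260), wildtype replicate 2 (0.357), wildtype replicate 3 (0.185) or apl replicate 1 (0.264). The fold lay between 36.8 and 53.3 in those fits. The signal of apl replicate 3 lay under that array's 25th percentile, where signal and background merge, and the fold of the transcript itself cannot be read from it.

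The order of the apl arrays in GSTF4, with replicate 2 highest and replicate 3 lowest, was also seen in the xylem markers IRX10, IRX15, IRX15-L and PRX66, in the phloem marker CLE45 and in the stomatal genes FAMA and SPCH. It was not seen in the phloem markers SWEET11, CLE41 and CLE44, in MUTE or in the leaf markers RCA and LHCB4.1. In wildtype GSTF4 was lowest in replicate 3, as were CLE45, SWEET11, FAMA and SPCH, but not CLE41, CLE44 or MUTE. The xylem mean was highest there. Among the 94 members, the lowest apl array was replicate 1 for 27, replicate 2 for 28 and replicate 3 for 39. This count was not made over all probe sets, and the full order was not counted. By another measure, the lowest replicate was the same in both genotypes for 59.6% of members, beside 53.0% of all probe sets. The 4 xylem markers lay below 0 in apl, by 0.83 to 2.06, all with an unadjusted p under 0.05, and none was called (limma). The groups did not overlap for IRX10, IRX15-L and PRX66 and overlapped for IRX15. Averaged over the 4 genes, wildtype replicates 1, 2 and 3 had log2 signals of 10.72, 11.37 and 11.55, while apl replicates 1, 2 and 3 had 9.84, 10.64 and 9.03. Of the phloem markers, SWEET11 and CLE44 differed by 2.25 (SE 0.77) and 0.70 (SE 0.17), CLE41 by 0.47 and CLE45 by -1.32, also with 0 calls. SWEET11 and CLE44 had unadjusted p of 0.0225 and 0.00386 (limma) and groups that did not overlap. CLE41 and CLE45 had unadjusted p above 0.05 and overlapping groups. Over these 4 genes the array means ran from 8.46 to 9.40 for wildtype and from 9.13 to 9.75 for apl. The stomatal genes FAMA, SPCH and MUTE averaged 4.42 to 5.00 in wildtype and 4.46 to 4.72 in apl, with MUTE dim in both groups. The part of these cell types in the differences of members was not tested.

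GSTF3 (AT2G02930), also of the phi class and a close paralogue of the auxin-binding and camalexin-binding GSTF2, had signals of 7.98, 8.34 and 8.35 in wildtype and 9.32, 8.70 and 8.80 in apl. Every apl array stood above every wildtype array, apl replicate 1 the most. The difference was 0.72 (SE 0.24), with an unadjusted p of 0.0182 and an adjusted p of 0.405 (limma). Because near-identical paralogues can hybridise to one probe set, the signal may hold RNA of both genes. ATGSTF13 ranged from 4.83 to 4.87 in wildtype and from 4.47 to 5.07 in apl, a difference of -0.09 (SE 0.21). GSTL3, of the lambda class, whose enzymes remove glutathione from conjugates, had wildtype signals from 11.56 to 12.06 and apl signals from 11.69 to 11.79. Its difference was -0.02 (SE 0.20), with a 95% interval of -0.49 to 0.45.

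A tandem group of tau genes, GSTU23, GSTU22, GSTU21 and GSTU20 (AT1G78320 to AT1G78370), had differences of -0.81, -0.42, 0.06 and -0.67, and none was called (limma). GSTU20, which has been linked to glucosinolate synthesis and to far-red light signalling, had signals of 10.12, 10.67 and 8.91 in wildtype and 9.87, 9.16 and 8.66 in apl. Its wildtype arrays spanned more than the difference between groups (SE 0.50). GSTU23 was at 4.24, 4.40 and 3.58 in wildtype and at 3.15, 4.00 and 2.62 in apl, lower in all 3 pairs but overlapping between groups (SE 0.39). Its apl mean was dim. GSTU25, an enzyme that can act on the explosive TNT, lay at 7.51, 7.94 and 9.23 in wildtype and 7.93, 7.72 and 8.33 in apl, with a difference of -0.23 (SE 0.44). GSTU26 beside it differed by -0.51 (SE 0.52), and its wildtype arrays ran from 4.74 to 6.74. For the remaining tau genes GSTU15, GSTU16, GSTU27 and GSTU28 the difference was between 0.06 and 0.32, and GSTU15 and GSTU21 were dim in both groups. Over all 15 glutathione transferases the median difference was -0.09, with 6 above 0 and 9 below. Of all probe sets, 64.0% lay above 0, with a median of 0.10.

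**Figure D2:**
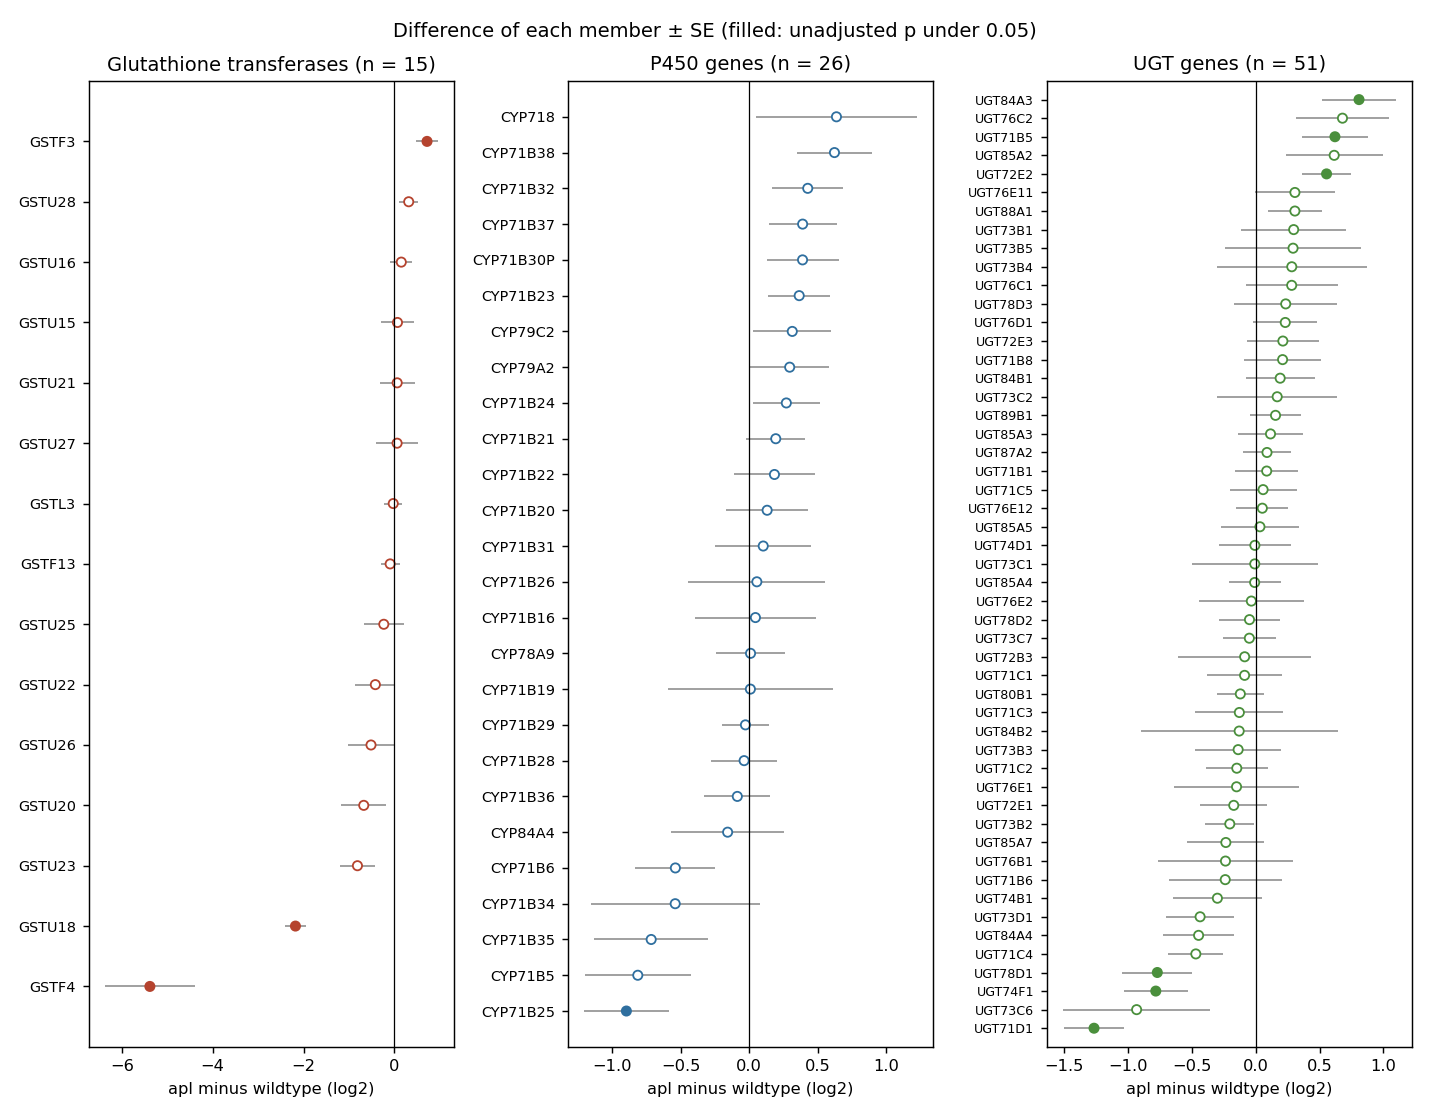
Difference between apl and wildtype in log2 units, with SE, for each glutathione transferase, P450 and UGT gene, in order within each family and with a separate scale per panel. Filled points have an unadjusted p under 0.05: GSTF4, GSTU18 and GSTF3 on the left, CYP71B25 in the middle, and UGT71D1, UGT74F1, UGT78D1, UGT72E2, UGT71B5 and UGT84A3 on the right.

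Most P450 members belong to 1 subfamily: 21 of the 26 are CYP71B genes, of which many still have no known substrate. No P450 gene was called in either fit (limma), 0 were higher and 1 was lower at an unadjusted p under 0.05, and none differed 2-fold. The median difference was 0.08, with 17 above 0 and 9 below. This split became 13 and 13 with median centring or quantile normalization. Over all probe sets the median was 0.10, with 64.0% above 0. Of the 26, 9 were dim in wildtype and 7 in both groups.

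CYP71B25 (AT3G26270) was the member with the lowest P450 difference. Its signals were 4.24, 4.44 and 3.93 in wildtype and 3.58, 3.66 and 2.68 in apl. The groups did not overlap, but the apl mean was dim. The difference was -0.90 (SE 0.31), with an unadjusted p of 0.0225 and an adjusted p of 0.435 (limma). CYP71B5 lay at 5.98, 7.51 and 7.01 in wildtype and 5.81, 6.15 and 6.09 in apl, a difference of -0.81 (SE 0.39) in which wildtype replicate 1 overlapped the apl arrays. CYP71B35 lay at 4.74, 6.28 and 5.10 in wildtype and 4.26, 4.77 and 4.94 in apl (-0.72, SE 0.42). CYP71B34 had 6.68, 7.73 and 5.16 in wildtype and 5.68, 6.50 and 5.77 in apl (-0.54, SE 0.62). Both spread more among the wildtype than among the apl arrays, and wildtype replicate 2 was the highest array in each.

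At the other end of the P450 range, CYP718 had signals of 5.31, 7.35 and 5.13 in wildtype and a mean of 6.57 ± 0.39 (SD, n = 3) in apl. The difference was 0.64 (SE 0.59), and wildtype replicate 2 stood above every apl array. CYP71B38 was higher in all 3 pairs, at 4.15, 3.34 and 3.37 in wildtype and 4.37, 4.01 and 4.35 in apl (0.62, SE 0.27, adjusted p 0.575 by limma), from a dim wildtype mean. CYP71B32 and CYP71B37 differed by 0.43 (SE 0.26) and 0.39 (SE 0.25), the second of them dim in both groups. Bright signals were found for CYP71B6, which acts in the turnover of indole-3-acetonitrile, with 7.87 to 8.83 in wildtype against 7.83 to 8.14 in apl, a difference of -0.54 (SE 0.29). CYP78A9, of a subfamily that promotes organ growth, ran from 4.24 to 5.04 in wildtype, from 4.44 to 4.82 in apl and differed by 0.01 (SE 0.25). CYP79A2 and CYP79C2, of a family that starts glucosinolate synthesis from amino acids, were dim in wildtype and differed by 0.30 (SE 0.29) and 0.31 (SE 0.28). CYP84A4, which acts in arabidopyrone synthesis, differed by -0.16 (SE 0.41).

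Many of the CYP71B genes are tandem copies. The 7 genes from CYP71B16 to CYP71B24 (AT3G26150 to AT3G26230) lay above 0 by 0.01 to 0.37, with a median of 0.18, but 2 of them were below 0 with median centring or quantile normalization. Of these 7, 3 were dim in both groups. All probe sets had a median of 0.10, with 64.0% above 0. The 6 genes that follow, from CYP71B25 to CYP71B37 (AT3G26270 to AT3G26330), ran from -0.90 to 0.39 with a median of -0.31, and 4 of them lay below 0, or 5 under either of these scalings. No gene of these runs was called, the difference between the runs was not tested, and members of a run are similar copies that probe sets may not fully separate. In another run, CYP71B5 at -0.81 stands beside CYP71B30P, a pseudogene, at 0.39, CYP71B31 at 0.10 and CYP71B32 at 0.43. CYP71B30P and CYP71B31 were dim in both groups.

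**Figure D3:**
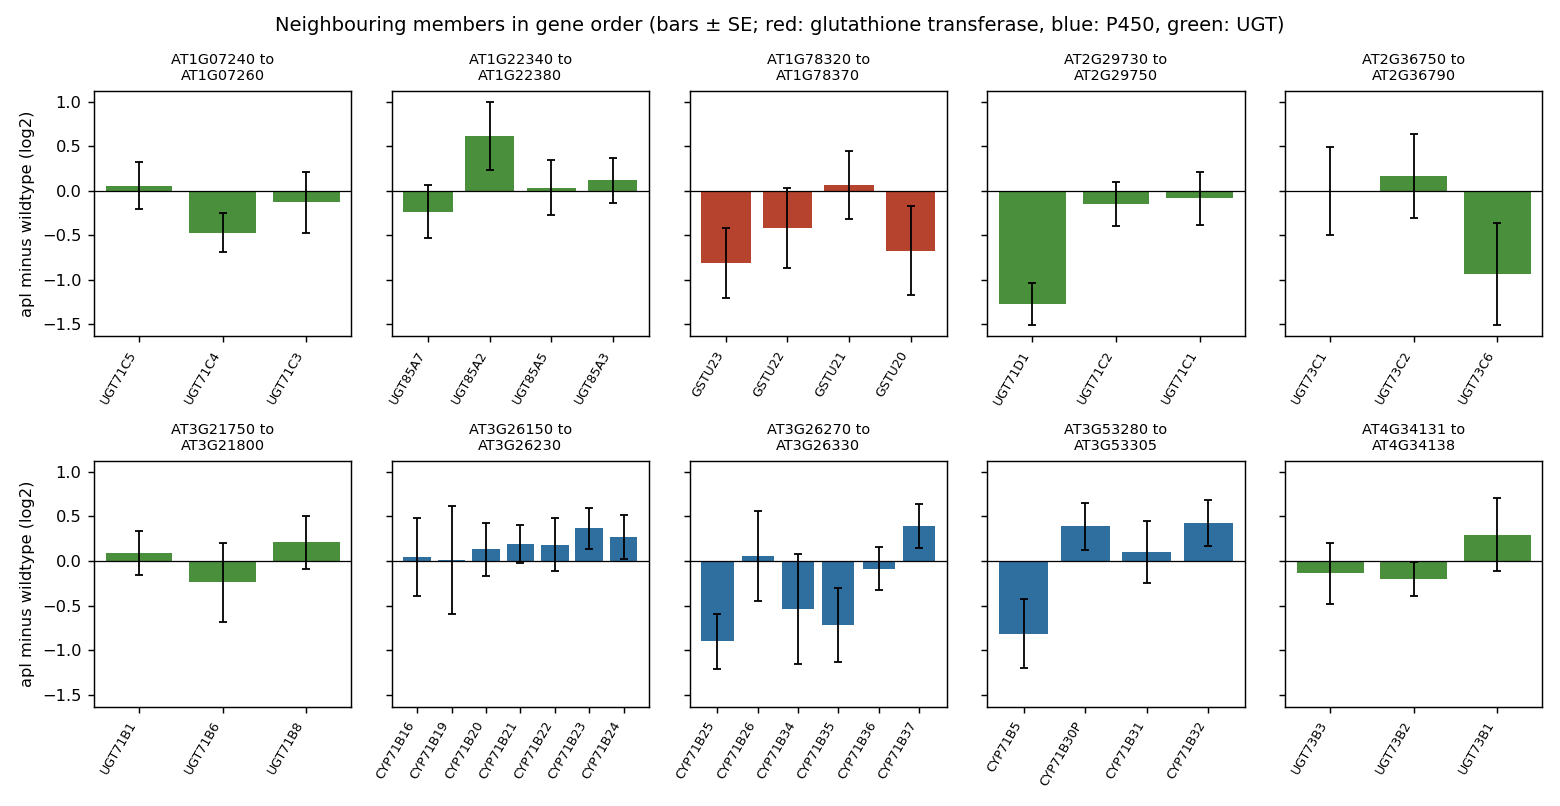
Difference between apl and wildtype in log2 units, with SE, for the 10 groups of at least 3 members that lie no more than 5 loci apart, in gene order. The CYP71B16 to CYP71B24 bars lie between 0.01 and 0.37, though 2 of these are below 0 with median centring or quantile normalization. Of these 7 genes, 3 are dim in both groups. UGT71D1 at -1.27 stands next to UGT71C2 at -0.15 and UGT71C1 at -0.09, which are dim in both groups.

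UGT genes were the most numerous, with 51 members, and their median difference was -0.01, with 24 above 0 and 27 below. The median over all probe sets was 0.10, with 64.0% above 0, so 0 is not the centre of these arrays. None was called without pairing. Of the 51, 42 differed by less than 0.5 and 13 were dim in both groups.

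UGT71D1 (AT2G29730) had signals of 4.93, 5.34 and 5.05 in wildtype and 3.64, 4.22 and 3.65 in apl. Every apl array stood below every wildtype array, and the pairs differed by -1.28, -1.12 and -1.40. The difference was -1.27 (SE 0.23), or 2.41-fold, with a limma adjusted p of 0.0957 and, with the replicate block, 0.0426 (SE 0.14). The signals of apl replicates 1 and 3 lay under the 25th percentiles of those arrays, so for UGT71D1 too the fold is one of signal and not of the transcript. The adjacent copies UGT71C2, from 2.27 to 2.70 in wildtype, and UGT71C1, from 3.15 to 3.92, were dim in both groups. Their differences were -0.15 (SE 0.24) and -0.09 (SE 0.30), and at that signal little can be said of them.

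The UGTs listed here as acting on hormones gave 0 calls in either fit. UGT74F1, which forms salicylate glucosides, had signals of 6.85, 6.77 and 6.99 in wildtype and 6.31, 6.37 and 5.59 in apl. The groups did not overlap, with apl replicate 3 lowest, and the difference was -0.78 (SE 0.25, unadjusted p 0.0171, limma adjusted p 0.395). UGT76B1, which glucosylates isoleucic and salicylic acid, and UGT71C3, which acts on methyl salicylate, differed by -0.24 (SE 0.53) and -0.13 (SE 0.34). UGT76C2 and UGT76C1 attach glucose to ring nitrogens of cytokinins, the class of hormone to which the added kinetin belongs. UGT76C2 was at 5.27, 5.59 and 5.99 in wildtype and 5.76, 6.10 and 7.04 in apl, higher in all 3 pairs by 0.49 to 1.04 but with overlap between groups (0.68, SE 0.37, limma adjusted p 0.670). UGT76C1 differed by 0.28 (SE 0.36) and UGT73C1, which can glucosylate cytokinins at the side chain, by -0.01 (SE 0.49).

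The abscisic acid glucosyltransferases UGT71C5, UGT71B6 and UGT71B8 differed by 0.06 (SE 0.26), -0.24 (SE 0.44) and 0.21 (SE 0.30). UGT71B5, a member of the same family, had signals of 5.82, 5.80 and 5.97 in wildtype and 6.38, 6.09 and 6.98 in apl. All apl arrays lay above all wildtype arrays, by little in replicate 2 and more in replicate 3 (0.62, SE 0.26, unadjusted p 0.0470, limma adjusted p 0.544). The auxin glucosyltransferases UGT84B1 and UGT74D1 differed by 0.19 (SE 0.27), dim in both groups, and by -0.01 (SE 0.28). UGT84B2, the tandem copy of UGT84B1, followed the replicate number rather than the genotype, with 4.33, 2.62 and 5.42 in wildtype and 4.33, 2.86 and 4.79 in apl.

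The UGTs listed here for phenolic metabolism differed in both directions, with 0 calls in either fit. UGT71D1, called with the replicate block, is not in this list. UGT84A3, which makes glucose esters of hydroxycinnamic acids, had signals of 5.53, 5.77 and 5.12 in wildtype and 6.79, 6.08 and 5.98 in apl. The groups did not overlap, and the difference of 0.81 (SE 0.29, 1.75-fold) was the highest of all 94 members (unadjusted p 0.0261, limma adjusted p 0.455). Its neighbour UGT84A4 differed by -0.45 (SE 0.28) and was dim in both groups. UGT72E2, which glucosylates monolignols, the precursors of lignin, was at 2.40, 2.28 and 1.98 in wildtype and 2.82, 2.82 and 2.68 in apl. These groups too were separate (0.56, SE 0.19, unadjusted p 0.0221, limma adjusted p 0.431), but all 6 signals were in the range that cannot be told from background. UGT72E1, of the same group, had 8.68 to 9.32 in wildtype, 8.61 to 9.24 in apl and a difference of -0.17 (SE 0.26). UGT72E3, dim in both groups, differed by 0.21 (SE 0.28).

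Flavonoid glycosylation is represented by UGT78D1, a flavonol rhamnosyltransferase, UGT78D2, a flavonol and anthocyanidin glucosyltransferase, UGT78D3, an arabinosyltransferase, and UGT73C6. UGT78D1 had signals of 4.00, 4.21 and 3.51 in wildtype and 3.52, 3.11 and 2.79 in apl. It was lower in all 3 pairs, apl replicate 1 just reached the lowest wildtype array, and the apl mean was dim (-0.77, SE 0.27, unadjusted p 0.0261, limma adjusted p 0.455). UGT78D2 and UGT78D3 differed by -0.05 (SE 0.24) and 0.24 (SE 0.40). UGT73C6, which also glucosylates brassinosteroids, lay at 4.64, 5.08 and 5.87 in wildtype and 3.85, 3.43 and 5.52 in apl. It was lower in all 3 pairs with wide overlap between groups (-0.93, SE 0.57), and its dimmer probe set gave -0.43 (SE 0.52).

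Among other UGTs, UGT85A2 averaged 6.66 ± 0.31 in wildtype and 7.27 ± 0.73 in apl (SD, n = 3), higher in pairs 1, 2 and 3 by 0.75, 0.13 and 0.96 but with overlap (SE 0.38). UGT74B1, the glucosyltransferase of glucosinolate synthesis, differed by -0.30 (SE 0.35), and the sterol glucosyltransferase UGT80B1 by -0.12 (SE 0.19). UGT87A2 ran from 11.70 to 11.98 in wildtype, from 11.73 to 12.09 in apl, a difference of 0.09 with a 95% interval of -0.36 to 0.54. The pathogen-responsive genes UGT73B3 and UGT73B5 differed by -0.14 (SE 0.34) and 0.29 (SE 0.53). Of the 5 genes with more than 1 probe set, UGT76E12 was the 1 whose probe sets stood furthest apart, at 0.05 (SE 0.20) for the brighter and 0.96 (SE 0.60) for the dimmer.

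**Figure D4:**
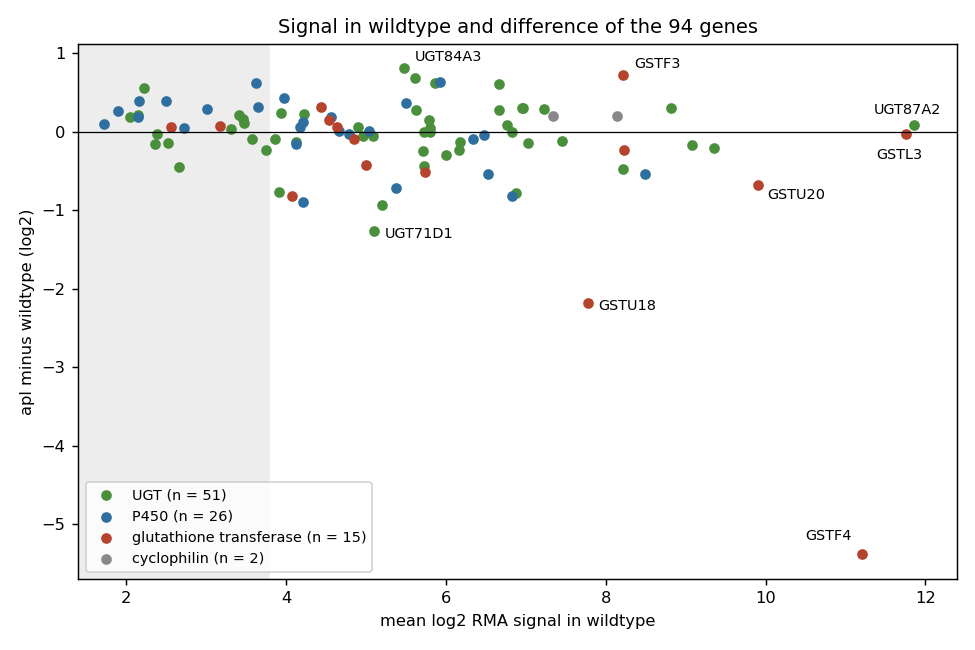
Mean log2 RMA signal in wildtype on the horizontal axis against the difference between apl and wildtype in log2 units, 1 point per member and coloured by family; grey marks signals under 3.79, the lowest 25th percentile of the 6 arrays. GSTF4, GSTU18 and UGT71D1 are the 3 points below -1, and none lies above 1.

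The precision of these values differed between members. The SE of the difference ran from 0.17 to 0.98 with a median of 0.29, and for 46 of 94 members the whole 95% interval lay within 1 log2 unit of 0. The SD among wildtype arrays ran from 0.02 for ATGSTF13 to 1.41 for UGT84B2, with a median of 0.40, and that among apl arrays from 0.02 to 2.15, with a median of 0.34. The array order tended to follow the replicate number. The replicate with the highest signal was the same in wildtype and apl for 55 of 94 members, or 58.5%, beside 53.4% of all probe sets. In 6 members a pair of arrays held an identical value, or 6.38%, beside 5.98% of all probe sets. In the 3 pairs of arrays the median difference was 0.13, -0.37 and -0.39 for glutathione transferases, 0.18, -0.05 and 0.19 for P450 genes and 0.11, -0.01 and -0.13 for UGT genes. In each family the medians of the 3 pairs differed in sign.

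Genes around these pathways were few in the annotation. Of 28 listed genes for glutathione supply, other glutathione transferases, P450 electron donors, vacuolar transport of conjugates and the regulation of xenobiotic responses, 4 were measured. None was called, and 0 had an unadjusted p under 0.05. The glutathione reductases GR1 and GR2 differed by 0.11 (SE 0.21) and -0.06 (SE 0.17), TCHQD by -0.02 (SE 0.19) and the glutaredoxin GRX480 by 0.42 (SE 0.52), the last from 4.12 and 3.90 in apl replicates 1 and 2 to 5.95 in replicate 3. The cyclophilins CYP59 and CYP71, protein-folding enzymes, differed by 0.20 (SE 0.22) and 0.20 (SE 0.17).

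RefSeq names 4 more UGT genes under other symbols in the platform annotation, and none of these 4 was called (limma). GT72B1, also known as UGT72B1 and able to glucosylate monolignols and chlorophenols, differed by -0.88 (SE 0.32, adjusted p 0.483). SGT, also UGT80A2, a sterol glucosyltransferase, had wildtype signals of 9.46 to 9.80 against 8.93 to 9.20 in apl, with no overlap between groups (-0.55, SE 0.19, adjusted p 0.432). UF3GT, also UGT79B1, an anthocyanin glycosyltransferase, is singled out after its values were seen. Its signals were 5.60, 3.72 and 2.87 in wildtype and 8.48, 4.51 and 5.19 in apl. It was higher in all 3 pairs, and apl replicate 1 stood far above the rest (2.00, SE 1.12, limma adjusted p 0.683). AT5G54010, also UGT79B6, differed by 0.05 (SE 0.22).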

How the data were processed

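Signals are the series' deposited log2 values of 38408 probe sets on 6 1-colour Affymetrix arrays, made by the authors with RMA, per the submitters' processing notes; its version and which arrays were run together are not given in the sources used here. The method pulls in the differences of dim probe sets. Probe sets were named by the supplied platform annotation, and the RefSeq table of TAIR10.1 held a locus for all 94 members and was used for names and gene order only. No scaling was added. A linear model across all probe sets, with moderated 2-sided tests (limma 3.58.1, R 4.3.3), compared the groups. The unpaired fit was tested on simulated data with independent noise for each array. That simulation held no likeness between arrays of equal number and does not bear on the replicate block. Figures used matplotlib 3.10.9. The number of arrays limits the precision.

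Deviations from group means correlated at 0.40 to 0.45 between arrays of equal replicate number and at -0.29 to -0.16 otherwise, and equal numbers shared 740 to 940 identical values. The numbers were therefore taken to pair the arrays, from the data. Deviations within a group sum to 0, so the negative correlations largely follow from the positive ones and are not separate evidence. The cause of the likeness between arrays of equal number may be culture or processing and was not tested.

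The members, lists and tests were chosen with earlier results of these data known. Members named are those called in either fit or with an unadjusted p under 0.05, the 4 highest and 4 lowest of each family, and members within 5 loci of a called one, 27 in all; other members are given to fill out a role or family. Alternatives were the replicate block, quantile normalization, median centring, a filter at the 25th percentile, a robust prior with variance trend, weights per array, averaged probe sets per gene and dropping arrays 1 at a time. Counting the cyclophilins as P450 genes was added after the data were seen.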

Additional observations from a re-analysis of the deposited data

How the results depend on the processing

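Members called lower in apl (limma), 1 without pairing, numbered 3 with the replicate block, 2 when the variance trend was fitted with a robust prior, and 0 to 2 without 1 array. Probe sets called higher and lower were 81 and 340 under the replicate block, 98 and 314 under the variance trend, and 1 to 22 and 20 to 308 without 1 array. Higher calls were 61 with the 25th percentile filter, which tests fewer probe sets. GSTF4 was also called with the variance trend (adjusted p 0.0407). Members called higher stayed at 0 under all alternatives run, and the 3 family medians moved by less than the SD of their pair medians, also with the cyclophilins counted in. Small differences changed sign without a call when 1 array was left out: GSTU15 ranged from -0.26 to 0.42, UGT71C2 from -0.32 to 0.034, UGT71C1 from -0.30 to 0.15 and CYP71B34 from -1.22 to 0.064. Members that passed 2-fold when 1 array was left out were CYP718 (2.55-fold without wildtype replicate 2), CYP71B5 (2.36), CYP71B35 (2.05) and GSTU26 (2.02) without wildtype replicate 1, CYP71B34 (2.33) and GSTU20 (2.25) without wildtype replicate 3, GSTU23 (2.08 and 2.27) without wildtype replicate 3 or apl replicate 2, CYP71B25 (2.05 to 2.10) without wildtype replicate 3, apl replicate 1 or apl replicate 2, and UGT73C6 (2.31 and 2.94) without wildtype replicate 1 or apl replicate 3. UGT73C6 also did so with quantile normalization (2.04) and array weights (2.17). The replicate block changed no other call of a named member than those of GSTF4 and UGT71D1. The cause of these moves was not tested. Signal without a detection call limits what can be said of the 22 members dim in both groups, and of the folds of GSTU23 and CYP71B25, which were dim in apl.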
